A study of Mus musculus with 14 samples.

Results

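The 8 libraries described here were the replicates 1 to 4 of 2 genotypes, 5xFAD and WT, out of 14 libraries in the whole series. They were set against each other by replicate number: 5xFAD and WT replicates 1 and 2 (4 libraries, called replicates 1-2 here) against 5xFAD and WT replicates 3 and 4 (4 libraries, replicates 3-4), with genotype as a covariate. The labels give mouse dorsal root ganglion as the tissue of all 8 and sensory neurons as their cell type, with the genotype 5xFAD mutant for one group and WT for the other. 5xFAD mice are a transgenic model of Alzheimer disease in which mutant human transgenes, APP among them, are driven by the neuronal Thy1 promoter. The protocol in the labels speaks of RNA from cultured cells or tissue without saying which these were. The labels give no age, sex, treatment or date for these samples, do not say what a replicate number stands for, and do not say whether each library came from its own animal, so the spread between libraries may be technical. The sets are therefore called by their numbers, and anything that was shared by libraries of 1 set, such as animals, dissection, culture or sequencing, cannot be told apart.

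The sets were chosen by the measured expression of these same libraries, which were seen to part by replicate number, so every difference between the sets is given as a description with its standard error (SE) and no p-value. The values show which cell types and programmes make up the split. Whether the difference between 5xFAD and WT was the same in both sets is another contrast, and it was tested. The sets in that test were drawn from the expression of the same libraries, so its p-values can be too small.

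A dorsal root ganglion holds the cell bodies of sensory neurons, each wrapped by satellite glia, with axons that run among myelinating and non-myelinating Schwann cells. Fibroblasts and Schwann cells lay down collagens and the laminins of the basement membrane, vessels enter with endothelium and mural cells, and resident macrophages clear debris and make the first component of complement. In bulk RNA, fewer cells of a type and less RNA per cell cannot be told apart.

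Total counts ranged from 13970593 to 19122761 in replicates 1-2 and from 13907070 to 19837836 in replicates 3-4, and 22033 to 22843 and 22098 to 23040 genes had counts. Neuronal markers were present but low beside those of glia, matrix and dividing cells. Rbfox3, the nuclear marker of mature neurons, stood at 4.29 and 3.29 CPM (counts scaled to a common library size) in 5xFAD and 0.884 and 2.53 CPM in WT of replicates 1-2, against 4.38 and 4.02 CPM in 5xFAD and 1.01 and 0.558 CPM in WT of replicates 3-4. Mki67, the marker of cycling cells, stood at 241 to 338 CPM in replicates 1-2 and 411 to 457 CPM in replicates 3-4. Mrgprd, the defining marker of non-peptidergic nociceptors, had at most 0.28 CPM in any library. The defining markers of neutrophils (S100a8), T cells (Cd3e), oligodendrocytes (Mog), spinal motor neurons (Chat) and keratinocytes (Krt5) were at or near 0 in all 8 libraries. Xist was at most 0.172 CPM and Ddx3y 133 to 141 CPM in every library, with no gap between the sets.

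The second principal component of the 15845 genes tested held 30.4% of the variance and set the libraries out by replicate number. It ran from 13.0 to 35.0 in replicates 1-2 and from -37.1 to -0.687 in replicates 3-4, where the WT replicate 4 library lay nearest to the other set. The first component held 33.96% and placed 5xFAD replicates 1 and 2 farthest from all other libraries. Over 11726 genes, pairs of libraries of 1 genotype and 1 set differed by more than counting noise in 26.2% to 37.1%. Pairs of 1 genotype from different sets did so in 43.5% to 59.5%, while pairs of different genotype within a set did so in 35.7% to 51.9%.

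**Figure D1:**
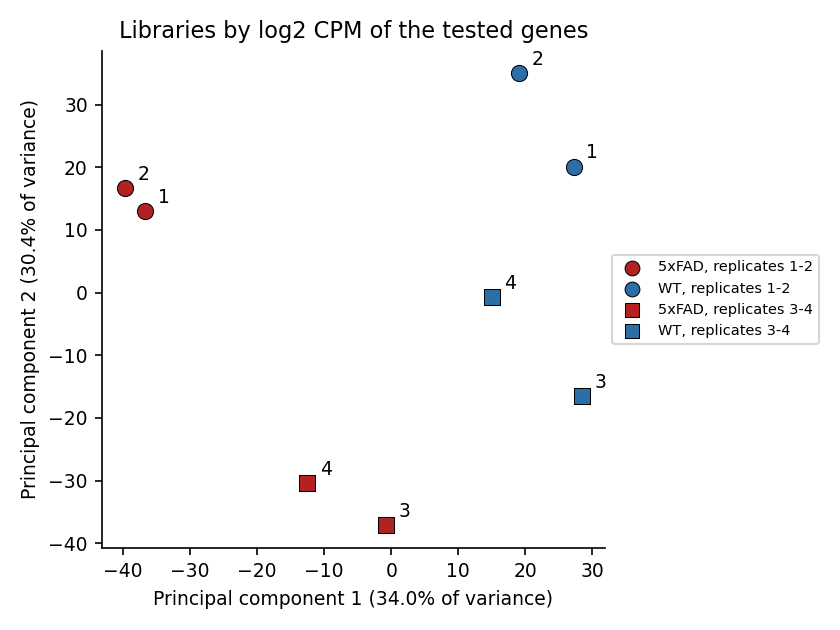
Principal components 1 (horizontal) and 2 (vertical) of log2 CPM over the tested genes, 1 point per library, coloured by genotype, with circles for replicates 1-2 and squares for replicates 3-4 and the replicate number beside each point. The 4 libraries of replicates 1-2 lie at 13.0 or above on the vertical axis and the 4 of replicates 3-4 at -0.687 or below.

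A gene was called apart where, in each genotype, both libraries of one set lay above both of the other, in the same direction, and the fitted difference was at least 1.5-fold. By this rule 237 genes were higher in replicates 1-2 (1.50% of the 15845 tested) and 579 were lower (3.65%). Without the fold minimum 2283 genes (14.4%) were higher and 2408 (15.2%) lower, and the median log2 difference over all genes was -0.00027. Genes with all 4 libraries of 1 set beyond all 4 of the other are a part of the 2283 and 2408. Their share of all genes is therefore at most 14.4% higher and 15.2% lower. Differences over 2-fold were called for 53 genes in the higher and 209 in the lower direction. At the edge of the rule, Eps8l1 was inside with a log2 difference of 0.585 and Gclm just outside with 0.584; in the lower direction Col7a1 was inside with -0.585 and Gsap outside with -0.584. With 1 library left out the rule is looser, since only 1 library then stands for its genotype and set. The counts rose whichever library was left out, which the rule itself favours. Called genes were of low abundance, with a median of 2.97 CPM for the higher and 8.07 CPM for the lower ones, against 22.4 CPM over all tested genes.

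Macrophage markers were lower in replicates 1-2. Of 13 tested members all 13 lay below 0, 8 were called lower and 0 higher, against 3.65% and 1.50% of all genes, and the median log2 difference was -1.09. The 3 chains of C1q, the recognition molecule of the complement cascade, stood lower in both genotypes. C1qa had 2.84 and 1.25 CPM in 5xFAD and 3.89 and 3.44 CPM in WT of replicates 1-2, against 15.5 and 13.8 CPM in 5xFAD and 19.4 and 15.0 CPM in WT of replicates 3-4 (log2 difference -2.51, SE 0.21). All 4 libraries of replicates 1-2 lay below all 4 of replicates 3-4, as they also did for C1qc (-2.08, SE 0.30) and C1qb (-1.71, SE 0.44). Cd163, the scavenger receptor for haemoglobin on tissue-resident macrophages, had 0.215 and 0.366 CPM in 5xFAD and 2.12 and 0.913 CPM in WT of replicates 1-2, against 5.48 and 5.29 CPM in 5xFAD and 10.1 and 9.48 CPM in WT of replicates 3-4. At -3.18 (SE 0.31) it had the largest difference of any named gene. Marco, another scavenger receptor, was also called lower, at -2.42 (SE 0.55), with 1 library, 5xFAD replicate 2, at 0.261 CPM and the other 3 of its set at 3.09 to 4.59 CPM. Mrc1, the mannose receptor, was called lower at -1.45 (SE 0.21). Cd68, the defining marker of the list, was not called, at -0.33 (SE 0.11), with -0.63 within 5xFAD and -0.05 within WT. In WT it had 40.8 and 40.1 CPM in replicates 1-2, against 39.5 and 44.5 CPM in replicates 3-4.

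The list's median difference was larger in size in 5xFAD. Within 5xFAD the median over the list was -2.08 and within WT -0.29, and in all 13 members the lowest pair of libraries was 5xFAD replicates 1 and 2. Without 5xFAD replicate 2, the lowest library in 12 of the 13, the median was -0.79. Fcgr3, an Fc receptor for IgG, had 1.99 and 1.78 CPM in 5xFAD and 8.07 and 8.36 CPM in WT of replicates 1-2, against 8.91 and 7.99 CPM in 5xFAD and 8.19 and 8.62 CPM in WT of replicates 3-4. The summed level of the list was 99.8 to 447 CPM in replicates 1-2 and 397 to 600 CPM in replicates 3-4. Whether this follows the number of macrophages was not tested.

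Some fibroblast markers and chemokines were lower too. Of 13 fibroblast markers 5 were called lower and 0 higher, against 3.65% and 1.50% of all genes. The median of the 13 was -0.98 (-1.26 within 5xFAD and -0.12 within WT). The collagen genes among them were lower in both genotypes, with Col1a1 at -1.26 within 5xFAD and -1.14 within WT. Ccl11, the eotaxin made by stromal cells, had 4.13 and 4.80 CPM in 5xFAD and 30.5 and 16.7 CPM in WT of replicates 1-2, against 122 and 73.5 CPM in 5xFAD and 106 and 53.7 CPM in WT of replicates 3-4 (-2.86, SE 0.69). The 5xFAD libraries of replicates 1-2 were the lowest, below the WT libraries of the same set. Lum, the keratan sulphate proteoglycan lumican, was called lower at -2.08 (SE 0.59). Pdgfra, the defining marker of these cells, and Dcn, which encodes decorin, had groups that overlapped and were not called, at -1.29 (SE 0.64) and -1.49 (SE 0.72). Among meningeal markers 2 of 7 were called lower, against 3.65% of all genes. These were Lama1 at -2.27 (SE 0.44) and Aldh1a2, an enzyme of retinoic acid synthesis, at -1.95 (SE 0.51). But the list's median of -0.97 was 0.095 within WT, -0.29 without 5xFAD replicate 3 and -0.59 without 5xFAD replicate 2. Ptgds, its defining marker, stood at 0.94 to 1.77 CPM in replicates 1-2 and 0.657 to 1.55 CPM in replicates 3-4.

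Among the complement genes 4 of 10 were called lower and 0 higher, against 3.65% and 1.50% of all genes. Their median was -0.88 (-1.47 within 5xFAD and -0.30 within WT). In 2 of the 10 all 4 libraries of replicates 1-2 lay below all 4 of replicates 3-4, against at most 15.2% of all genes. C3, the central component of the cascade, had 4.56 and 4.80 CPM in 5xFAD and 8.07 and 5.90 CPM in WT of replicates 1-2, against 40.6 and 30.6 CPM in 5xFAD and 15.9 and 9.43 CPM in WT of replicates 3-4 (-1.91, SE 0.51). Its difference was -2.92 within 5xFAD and -0.84 within WT, whereas that of C4b was -0.41 within 5xFAD and -1.31 within WT. C4b, the fourth component, was called lower at -0.84 (SE 0.23), with 200 and 221 CPM in 5xFAD and 64.4 and 44.6 CPM in WT of replicates 1-2, against 276 and 283 CPM in 5xFAD and 139 and 132 CPM in WT of replicates 3-4. C4b has a near-identical neighbour, so its counts could be shared between copies. The 14 tested cytokine and chemokine genes had a median of -0.86 (-1.17 within 5xFAD and -0.16 within WT). In 2 of them all 4 libraries of replicates 1-2 lay below all 4 of replicates 3-4, and in 1 above. Of the 14, 3 were called lower and 0 higher, against 3.65% and 1.50% of all genes. The 3 were Cxcl10 at -1.27 (SE 0.09; -1.16 within 5xFAD and -1.41 within WT), Cxcl14 at -0.98 (SE 0.17) and Ccl2, which draws monocytes, at -0.74 (SE 0.23).

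Matrix genes were lower in replicates 1-2 in both genotypes. All 27 collagen and basement membrane genes tested lay below 0, with a median of -0.70, and medians of -0.69 within 5xFAD and -0.58 within WT. Of the 27, 12 were called lower and 0 higher, against 3.65% and 1.50% of all genes. In 21 of the 27 all 4 libraries of replicates 1-2 lay below all 4 of replicates 3-4, against at most 15.2% of all genes. Col28a1, a collagen of peripheral nerve and its glia, had 448 and 432 CPM in 5xFAD and 245 and 144 CPM in WT of replicates 1-2, against 1071 and 991 CPM in 5xFAD and 691 and 534 CPM in WT of replicates 3-4 (-1.44, SE 0.21). Col1a1 and Col3a1, the chains of fibrillar collagens I and III, were called lower at -1.20 (SE 0.20) and -0.97 (SE 0.17). Col16a1, a fibril-associated collagen, was called lower at -1.07 (SE 0.11). WT replicate 2 was the lowest of the 8 libraries in 23 of the 27 genes. The summed level of the 27 was 20546 to 25707 CPM in replicates 1-2 and 29796 to 36871 CPM in replicates 3-4. Of 19 matrix remodelling genes 2 were called lower and 0 higher, against 3.65% and 1.50% of all genes. These 2 were the lysyl oxidases Loxl1 and Loxl2, which cross-link collagen, at -0.76 (SE 0.20) and -0.75 (SE 0.18). Postn, the matricellular protein periostin, was called lower at -0.77 (SE 0.11).

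Markers of myelinating and non-myelinating Schwann cells had medians below 0 in replicates 1-2, again in both genotypes. Those of repair Schwann cells stood near 0, with a median of -0.09 and 0 of 10 called. Of 14 myelin genes 5 were called lower and 1 higher, Pllp, against 3.65% and 1.50% of all genes. The median of the 14 was -0.51 (-0.59 within 5xFAD and -0.49 within WT). In 2 of the 14 all 4 libraries of replicates 1-2 lay below all 4 of replicates 3-4, and in 1 above, against at most 15.2% and 14.4% of all genes. Pmp22, a membrane protein of compact myelin in peripheral nerve, had 821 and 814 CPM in 5xFAD and 481 and 406 CPM in WT of replicates 1-2, against 1283 and 1389 CPM in 5xFAD and 907 and 881 CPM in WT of replicates 3-4 (-0.86, SE 0.07). All 4 libraries of replicates 1-2 lay below all 4 of replicates 3-4. Mag and Prx, which encode further proteins of myelinating Schwann cells, were called lower at -1.11 (SE 0.22) and -0.97 (SE 0.10). Egr2, the transcription factor of myelination, was at -0.51 (SE 0.12) and was not called, and Pllp, a myelin proteolipid, had 2.46 to 3.17 CPM in replicates 1-2 and 1.51 to 2.23 CPM in replicates 3-4. The 12 markers of non-myelinating and immature Schwann cells had a median of -0.31 (-0.19 within 5xFAD and -0.43 within WT). Of these 12, 3 were called lower, against 3.65% of all genes: Gfap at -1.78 (SE 0.27), the sodium channel gene Scn7a at -1.27 (SE 0.20) and the adhesion molecule gene Ncam1 at -0.69 (SE 0.08). Scn7a had 709 and 717 CPM in 5xFAD and 337 and 219 CPM in WT of replicates 1-2, against 1356 and 1349 CPM in 5xFAD and 863 and 839 CPM in WT of replicates 3-4.

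Satellite glia had 4 of 10 markers called lower and 0 higher, against 3.65% and 1.50% of all genes. The list's median was -0.34, and -0.22 without 5xFAD replicate 3. In 2 of the 10 all 4 libraries of replicates 1-2 lay below all 4 of replicates 3-4, against at most 15.2% of all genes. Kcnj10, the inward rectifier potassium channel that buffers potassium around neurons, had 7.73 and 8.67 CPM in 5xFAD and 5.01 and 4.21 CPM in WT of replicates 1-2, against 21.8 and 19.4 CPM in 5xFAD and 23.7 and 11.1 CPM in WT of replicates 3-4 (-1.59, SE 0.25). Cadm2, an adhesion molecule, was called lower at -0.99 (SE 0.19) and Apoe, the lipid carrier, at -0.78 (SE 0.08). Fabp7, the defining marker, was not called (-0.13, SE 0.17), with 0.24 within 5xFAD and -0.52 within WT. Glul, Gja1 and Ednrb, whose differences were between 0.05 and 0.11, were not called either.

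**Figure D2:**
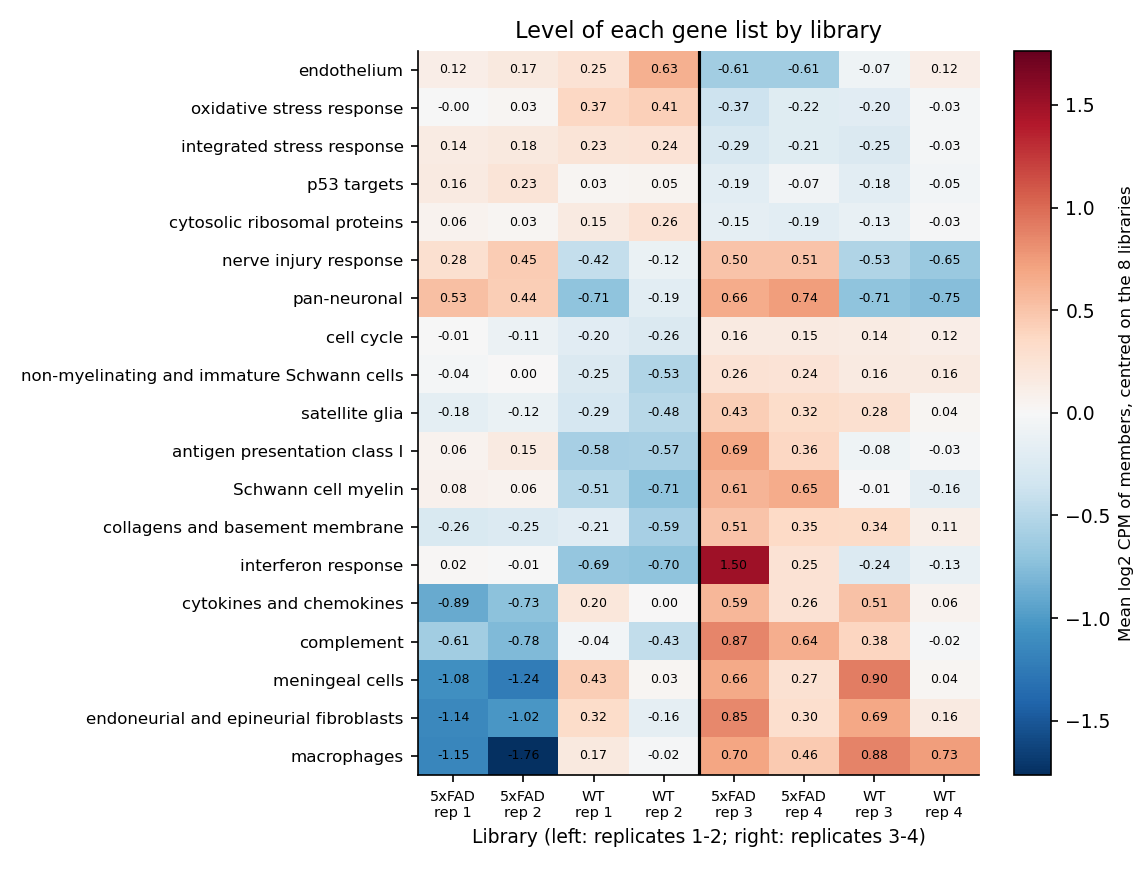
Mean log2 CPM of the tested members of each of 19 gene lists in each library, minus the mean of the 8 libraries, with replicates 1-2 left of the black line and replicates 3-4 right of it, 5xFAD before WT. Macrophage and fibroblast lists are lowest in 5xFAD replicates 1 and 2, at -1.76 to -1.02, and interferon response genes are highest in 5xFAD replicate 3, at 1.50.

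Interferon response genes were lower in replicates 1-2, but 5xFAD replicate 3 stood far above the other libraries. All 23 tested members lay below 0, and the median was -0.74. Of the 23, 12 were called lower and 0 higher, against 3.65% and 1.50% of all genes. In only 3 of the 23 did all 4 libraries of replicates 1-2 lie below all 4 of replicates 3-4, against at most 15.2% of all genes. In 21 of the 23 the highest library was 5xFAD replicate 3. Ifit1, an interferon-induced protein that binds foreign RNA, had 12.4 and 10.4 CPM in 5xFAD and 3.71 and 2.81 CPM in WT of replicates 1-2, against 74.1 and 14.4 CPM in 5xFAD and 5.39 and 7.15 CPM in WT of replicates 3-4. Ifit3, its partner, had 27.1 and 24.0 CPM in 5xFAD and 10.1 and 10.9 CPM in WT of replicates 1-2, against 139 and 36.7 CPM in 5xFAD and 20.7 and 23.3 CPM in WT of replicates 3-4. Both were called lower, at -1.57 (SE 0.63) and -1.47 (SE 0.49), and Ifit3 has a close copy whose reads it could share. Zbp1, a sensor of Z-form nucleic acid, was called lower at -1.85 (SE 0.41) and Oasl2 at -1.30 (SE 0.50). Without 5xFAD replicate 3 the median was -0.37 and 6 members were called lower, and within WT alone it was -0.47 and 10 were called lower. All 11 genes of antigen presentation by class I also had their highest library in 5xFAD replicate 3. Of these 11, 3 were called lower, against 3.65% of all genes: Psmb9, Psmb8 and H2-Q4, at -0.99 (SE 0.14), -0.77 (SE 0.14) and -0.64 (SE 0.10). In 2 of the 11 all 4 libraries of replicates 1-2 lay below all 4 of replicates 3-4. H2-Q4 has close relatives whose reads it could share.

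The letters TTTC, any 2 bases and TTTC again, the core of the interferon-stimulated response element bound by STAT and IRF factors, were looked for on both strands in 300 bases around the start of each gene in RefSeq promoters (assembly GRCm38.p6; 250 bases before to 50 after). This motif occurred in 3.99% of 27025 genes, and in 10 of the 18 tested members of the interferon list that matched by symbol. The matches within each promoter shown do not overlap each other. The promoters of Ifit1 and Ifit3 are shown because both genes were called lower and held the motif 2 times each, in capitals. The start of the motif nearest to the beginning of the window lay 104 bases before the gene start in Ifit1 and 156 in Ifit3. The counts themselves rest on GRCm39, per the submitters' processing notes, so the sequences are given with their own build, at chr19:34640639-34640938 (Ifit1, plus strand) and chr19:34583279-34583578 (Ifit3, plus strand).

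Ifit1: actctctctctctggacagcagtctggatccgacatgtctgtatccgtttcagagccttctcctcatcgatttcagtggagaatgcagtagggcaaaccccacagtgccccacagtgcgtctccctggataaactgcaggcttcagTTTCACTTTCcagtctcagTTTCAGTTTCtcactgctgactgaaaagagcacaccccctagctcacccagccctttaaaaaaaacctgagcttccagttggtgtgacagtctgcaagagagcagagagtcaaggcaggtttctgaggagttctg

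Ifit3: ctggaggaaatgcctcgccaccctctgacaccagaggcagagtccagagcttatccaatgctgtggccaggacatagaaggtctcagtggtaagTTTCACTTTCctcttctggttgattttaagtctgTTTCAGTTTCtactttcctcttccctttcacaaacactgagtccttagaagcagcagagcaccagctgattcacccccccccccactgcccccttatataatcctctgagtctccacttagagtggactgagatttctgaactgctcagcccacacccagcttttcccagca

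A match is a string of letters and says nothing of binding in these libraries.

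Endothelial markers were higher in replicates 1-2. All 12 tested members lay above 0, and the median was 0.54 (0.76 within 5xFAD and 0.40 within WT). Of the 12, 4 were called higher and 0 lower, against 1.50% and 3.65% of all genes. Plvap, the diaphragm protein of fenestrated endothelium, had 121 and 122 CPM in 5xFAD and 172 and 225 CPM in WT of replicates 1-2, against 47.4 and 56.6 CPM in 5xFAD and 96.9 and 155 CPM in WT of replicates 3-4 (0.92, SE 0.22). The WT ranges of the sets are close together, with 155 CPM in WT replicate 4 against 172 CPM in WT replicate 1. Egfl7, Kdr and Eng, which act in vessel growth, were called higher at 0.79 (SE 0.12), 0.78 (SE 0.17) and 0.68 (SE 0.17). Esm1 and Col13a1 were among the 12 largest differences in the higher direction at 5 CPM or more, at 1.20 (SE 0.29) and 1.89 (SE 0.24). Esm1 encodes endocan, a proteoglycan of endothelial tip cells, and Col13a1 a transmembrane collagen. WT replicate 2 was the highest library in all 12 endothelial genes. Pecam1 had 251 to 379 CPM in replicates 1-2 and 152 to 275 CPM in replicates 3-4, which overlapped.

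Genes of the integrated stress response, the programme that ATF4 drives when translation initiation is slowed, were also higher in replicates 1-2. Of 15 tested members 14 lay above 0, with a median of 0.37 (0.41 within 5xFAD and 0.33 within WT). Of the 15, 3 were called higher and 0 lower, against 1.50% and 3.65% of all genes. In 9 of the 15 all 4 libraries of replicates 1-2 lay above all 4 of replicates 3-4, against at most 14.4% of all genes. Trib3, a pseudokinase that acts as feedback on the pathway, had 119 and 124 CPM in 5xFAD and 110 and 125 CPM in WT of replicates 1-2, against 45.1 and 57.6 CPM in 5xFAD and 51.9 and 78.1 CPM in WT of replicates 3-4 (1.04, SE 0.17). Ddit3, the transcription factor CHOP, was called higher at 0.82 (SE 0.12) and Chac1, which degrades glutathione, at 0.78 (SE 0.10). Atf4 itself stood at 404 to 479 CPM in replicates 1-2 and 297 to 350 CPM in replicates 3-4 (0.44, SE 0.07).

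TGATGNAA, the composite element of CEBP and ATF factors, occurred on either strand in the same promoter windows of 4.51% of genes and in 4 of the 13 tested list members that matched by symbol. Its letters were found in Trib3 and Chac1, both called higher, and not in the window of Ddit3. Both promoters are shown for that reason, with the match in capitals. Trib3 lies at chr2:152344011-152344310 on the minus strand, and Chac1 at chr2:119350992-119351291 on the plus strand (GRCm38.p6).

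Trib3: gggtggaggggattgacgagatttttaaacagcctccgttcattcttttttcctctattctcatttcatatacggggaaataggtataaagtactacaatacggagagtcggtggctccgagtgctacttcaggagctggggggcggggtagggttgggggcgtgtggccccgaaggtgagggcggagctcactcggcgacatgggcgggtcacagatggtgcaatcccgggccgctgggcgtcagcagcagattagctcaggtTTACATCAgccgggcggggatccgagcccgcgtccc

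Chac1: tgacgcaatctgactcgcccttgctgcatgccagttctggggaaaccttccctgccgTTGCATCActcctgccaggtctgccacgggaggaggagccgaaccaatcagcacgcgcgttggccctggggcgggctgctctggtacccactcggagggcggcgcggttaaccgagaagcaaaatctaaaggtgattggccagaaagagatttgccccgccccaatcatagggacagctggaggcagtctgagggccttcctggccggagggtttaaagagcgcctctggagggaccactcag

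Other stress genes differed in direction. Of 15 genes of the unfolded protein response 11 lay below 0 and 4 above, 0 were called in either direction, and the median was -0.11. Gdf15, a secreted stress cytokine, had 66.3 and 71.2 CPM in 5xFAD and 39.1 and 44.1 CPM in WT of replicates 1-2, against 18.2 and 21.8 CPM in 5xFAD and 17.1 and 28.4 CPM in WT of replicates 3-4 (1.32, SE 0.26), and was called higher. Of 12 genes of the oxidative stress response 11 lay above 0 and 2 were called higher, against 1.50% of all genes. The 2 were Gsta4, a glutathione transferase, at 0.82 (SE 0.13) and Hmox1, haem oxygenase, at 0.60 (SE 0.15). The median of all 12 was 0.47. For Hmox1 the difference was 0.28 within 5xFAD and 0.93 within WT. Of 13 p53 targets 11 lay above 0 and none was called in either direction, with a median of 0.29. In 9 of them all 4 libraries of replicates 1-2 lay above all 4 of replicates 3-4, against at most 14.4% of all genes. Cdkn1a, the inhibitor of cyclin-dependent kinases, was at 0.58 (SE 0.08) with 486 to 620 CPM in replicates 1-2 and 325 to 409 CPM in replicates 3-4. Cyp1a1, a cytochrome P450 induced by aryl hydrocarbons, had 311 to 345 CPM in replicates 1-2 and 134 to 232 CPM in replicates 3-4 (0.96, SE 0.20).

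Cell cycle genes were lower and ribosomal protein genes higher in replicates 1-2, by small amounts. Of 27 cell cycle genes 26 lay below 0 and 0 were called, with a median of -0.27 (-0.20 within 5xFAD and -0.41 within WT). In 18 of them all 4 libraries of replicates 1-2 lay below all 4 of replicates 3-4, against at most 15.2% of all genes. WT replicate 2 was the lowest of the 8 libraries in 18 of the 27. Mki67 was at -0.51 (SE 0.08). The 43 ribosomal protein genes all lay above 0 with 0 called and a median of 0.25. In 26 all 4 libraries of replicates 1-2 lay above all 4 of replicates 3-4, against at most 14.4% of all genes. WT replicate 2 was the highest of the 8 libraries in 36 of the 43. The share of counts in ribosomal protein genes was 1.38% to 1.67% in replicates 1-2 and 1.17% to 1.34% in replicates 3-4. Genes with a short length, taken over all exons of a gene joined, also tended to be higher. The median was 0.093 in the fifth of genes with the shortest length and -0.075 in the fifth with the longest. With bins of length and GC content removed, the ribosomal median was 0.18. Several ribosomal protein genes have processed copies, so their counts are less certain. The part that this length plays was not tested beyond that fit.

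Genes shared by all neurons had no called member, while 3 genes of injured neurons and the nociceptor gene P2rx3 were called higher. Of 15 pan-neuronal genes none was called in either direction, and the median was -0.07, with -0.19 within 5xFAD and 0.32 within WT. Tubb3, a tubulin of neurons, had 407 and 386 CPM in 5xFAD and 225 and 258 CPM in WT of replicates 1-2, against 397 and 412 CPM in 5xFAD and 268 and 268 CPM in WT of replicates 3-4. In both sets the 5xFAD libraries lay above the WT libraries. Of 16 genes of the response to nerve injury 3 were called higher and 0 lower, against 1.50% and 3.65% of all genes. The 3 were the stathmin gene Stmn4 at 0.86 (SE 0.21), Cckbr, a receptor of cholecystokinin, at 0.82 (SE 0.19) and Ecel1, an endopeptidase of injured neurons, at 0.78 (SE 0.15). The list's median was -0.06 (-0.09 within 5xFAD and 0.37 within WT). P2rx3, the purine receptor of nociceptors, was called higher at 0.59 (SE 0.11), as the only called member of 7 in its list, against 1.50% of all genes. The median of that list was -0.02, with 4 members below 0. Peptidergic nociceptor markers had a median of -0.57 with 0 of 6 called. Markers of large myelinated neurons had a median of -0.47 with 0 of 11 called.

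**Figure D3:**
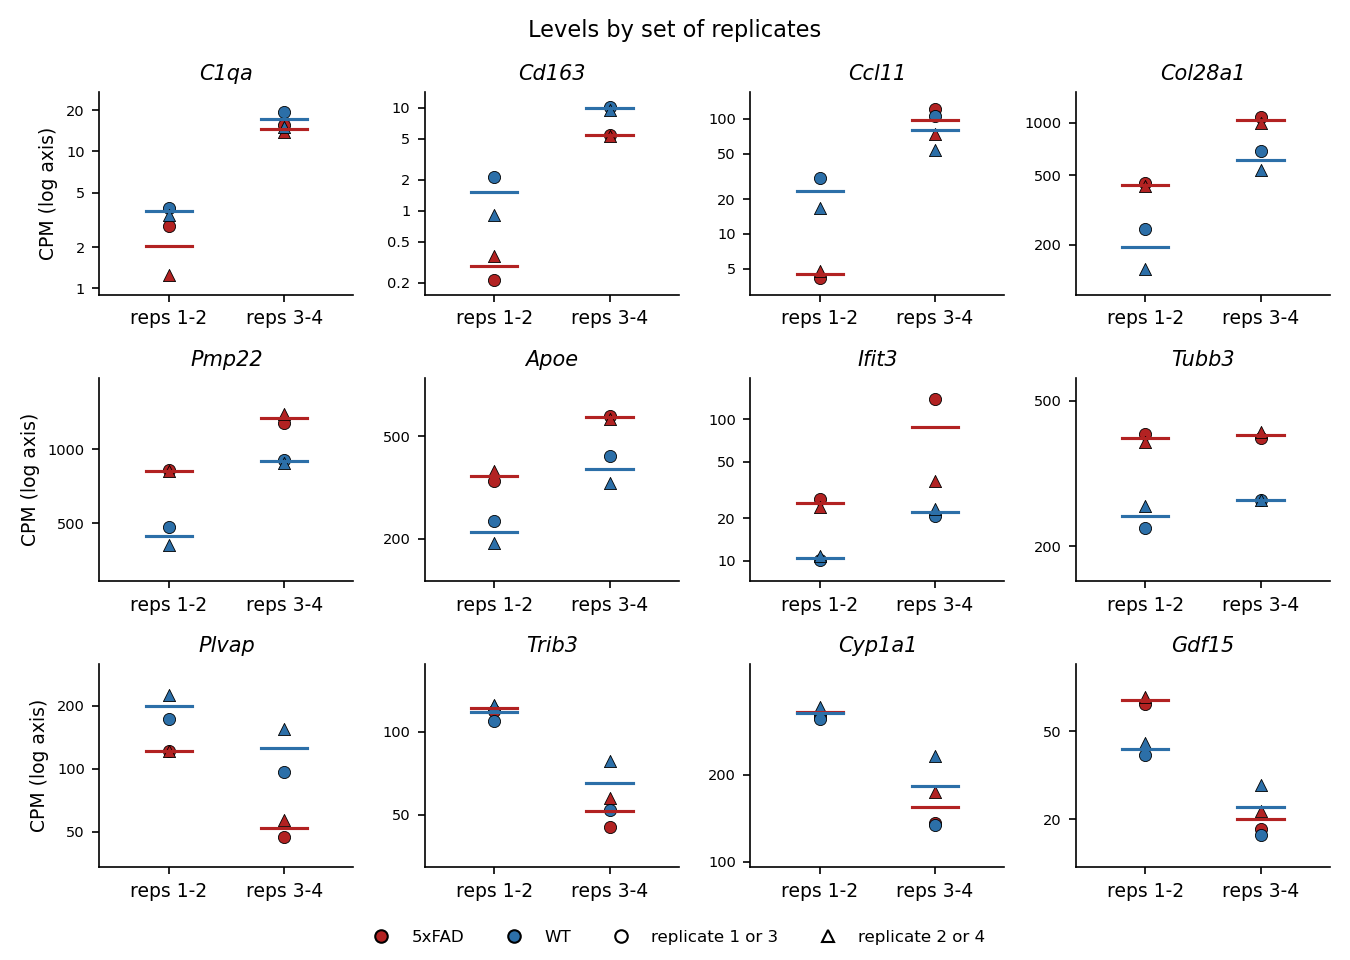
CPM on log axes of 12 genes in the 8 libraries, with replicates 1-2 left and replicates 3-4 right, red for 5xFAD and blue for WT, circles for replicates 1 or 3 and triangles for replicates 2 or 4, and a line at the mean of each genotype in each set. C1qa, Cd163, Ccl11, Col28a1, Pmp22, Apoe and Ifit3 are lower in replicates 1-2, Tubb3 follows genotype, and Plvap, Trib3, Cyp1a1 and Gdf15 are higher in replicates 1-2.

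Some lists stood near 0. The circadian clock genes had a median of 0.02 with 0 of 17 called in either direction, and the Hox genes of cervical and thoracic levels -0.13 (0 of 17) and of lumbar and sacral levels -0.06 (0 of 9). Nuclear long RNAs were lower, with a median of -0.57 and 2 of 9 called lower, Meg3 and Airn, against 3.65% of all genes.

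**Figure D4:**
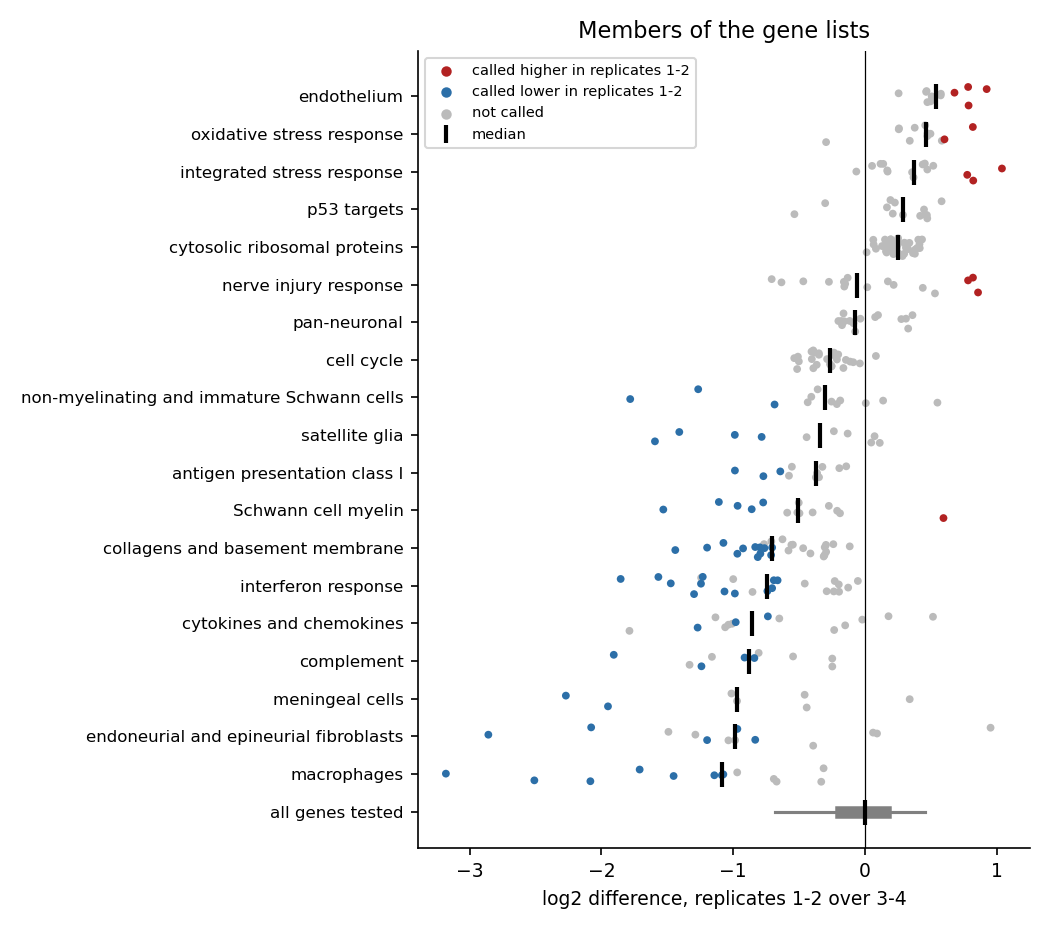
log2 difference (replicates 1-2 over 3-4) of each tested member of 19 gene lists, 1 dot per gene, red where called higher, blue where called lower and grey where not called, with a black bar at the median. The grey bars at the bottom span the 25th to 75th percentile (thick) and the 5th to 95th (thin) of all 15845 genes, -0.18 to 0.15 and -0.68 to 0.46; the macrophage median of -1.09 lies below both.

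The genotype by set term asked whether 5xFAD differed from WT by the same amount in each set. It was the difference in replicates 1-2 minus that in replicates 3-4, tested with the edgeR quasi-likelihood test across all 15845 genes. At an adjusted p under 0.05 it called 189 genes (1.19%), of which 38 (0.240%) were higher and 151 (0.953%) lower, and 1586 genes had an unadjusted p under 0.05. In 141 of the 151 called lower, 5xFAD replicates 1 and 2, which also stood apart on the first principal component, were the lowest pair of all 8 libraries, and in 128 of the 151 5xFAD lay below WT in replicates 1-2 while the difference in replicates 3-4 was under 1.5-fold. Only 12 of the 151 were also called lower between the sets. These counts moved with single libraries. Genes called lower numbered 71 without 5xFAD replicate 1, 57 without 5xFAD replicate 2, 77 without 5xFAD replicate 3, 100 without WT replicate 4 and 238 without WT replicate 3. Genes called higher numbered 7, 8 and 9 without 5xFAD replicates 1, 2 and 3, 20 without WT replicate 4, 64 without WT replicate 3 and 104 without WT replicate 1.

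Among the genes with the smallest adjusted p in the lower direction were several secreted factors. Trf, the iron carrier transferrin, had 177 and 184 CPM in 5xFAD and 516 and 468 CPM in WT of replicates 1-2, against 411 and 406 CPM in 5xFAD and 470 and 449 CPM in WT of replicates 3-4 (interaction -1.28, SE 0.09, adjusted p = 3.68e-06 in edgeR). Fgf7, a fibroblast growth factor made by stromal cells, had 10.5 and 10.4 CPM in 5xFAD and 68.2 and 61.4 CPM in WT of replicates 1-2, against 48.9 and 38.7 CPM in 5xFAD and 57.6 and 43.7 CPM in WT of replicates 3-4 (-2.42, SE 0.21, adjusted p = 0.000345 in edgeR). In both genes the 5xFAD libraries of replicates 1-2 were the lowest pair of the 8. Csf1, the growth factor of macrophages, had an interaction of -1.02 (SE 0.10, adjusted p = 8.8e-05 in edgeR), and Selp, the platelet and endothelial selectin, of -2.24 (SE 0.26, adjusted p = 0.000345 in edgeR). Xdh, xanthine oxidoreductase, stood at -1.13 and Pla2g4a, the cytosolic phospholipase A2, at -1.16. Spp1, which encodes osteopontin and was looked at after its values were seen, had 537 and 535 CPM in 5xFAD and 5524 and 5027 CPM in WT of replicates 1-2, against 3197 and 2440 CPM in 5xFAD and 5037 and 3543 CPM in WT of replicates 3-4 (-2.69, SE 0.30, adjusted p = 0.035 in edgeR).

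Macrophage markers held 4 of these calls, all lower: Fcgr3, Ctss, Adgre1 and Mrc1, of 13 tested, with interactions of -2.13, -1.88, -1.75 and -1.17. Adgre1, the F4/80 antigen, had 3.27 and 2.14 CPM in 5xFAD and 10.2 and 8.71 CPM in WT of replicates 1-2, against 12.3 and 9.94 CPM in 5xFAD and 11.4 and 11.7 CPM in WT of replicates 3-4. C1qa, C1qb, C1qc and Cd163 did not pass (adjusted p between 0.315 and 0.799 in edgeR), so in them the genotype difference was not shown to vary between the sets. The fibroblast markers Lum and Dpt were called lower as well, of 13 tested, and so were C3 and C3ar1 of 10 complement genes, and Fgf7 and Igf1 among 3 of 21 growth factors. Ccl2 and Csf1 were among 3 called lower of 14 cytokines and chemokines. Hmox1 (-0.65, adjusted p = 0.00501 in edgeR) was among 3 called lower of 12 oxidative stress response genes. Of 27 collagen and basement membrane genes edgeR called 0, with 3 at an unadjusted p under 0.05, while DESeq2 and limma-voom called 1 each. Of 15 integrated stress response genes edgeR, DESeq2 and limma-voom called 0 (1 at an unadjusted p under 0.05 in edgeR). They also called 0 of 23 interferon response genes (1 at an unadjusted p under 0.05) and 0 of 12 endothelial genes (2 at an unadjusted p under 0.05).

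Among the genes called higher, Slitrk5, a synaptic adhesion protein, had 15.9 and 16.6 CPM in 5xFAD and 15.6 and 13.2 CPM in WT of replicates 1-2, against 2.48 and 2.53 CPM in 5xFAD and 12.4 and 11.8 CPM in WT of replicates 3-4 (2.44, SE 0.24, adjusted p = 7.73e-05 in edgeR). The 5xFAD libraries of replicates 3-4 were the lowest pair. Gria4, a subunit of AMPA receptors, was higher at 1.54 (SE 0.20, adjusted p = 0.000559 in edgeR) and Sfrp1, a Wnt antagonist, at 1.09 (SE 0.13, adjusted p = 0.000438 in edgeR). In 22 of the 38 called higher, 5xFAD lay above WT in replicates 1-2 and below WT in replicates 3-4.

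**Figure D5:**
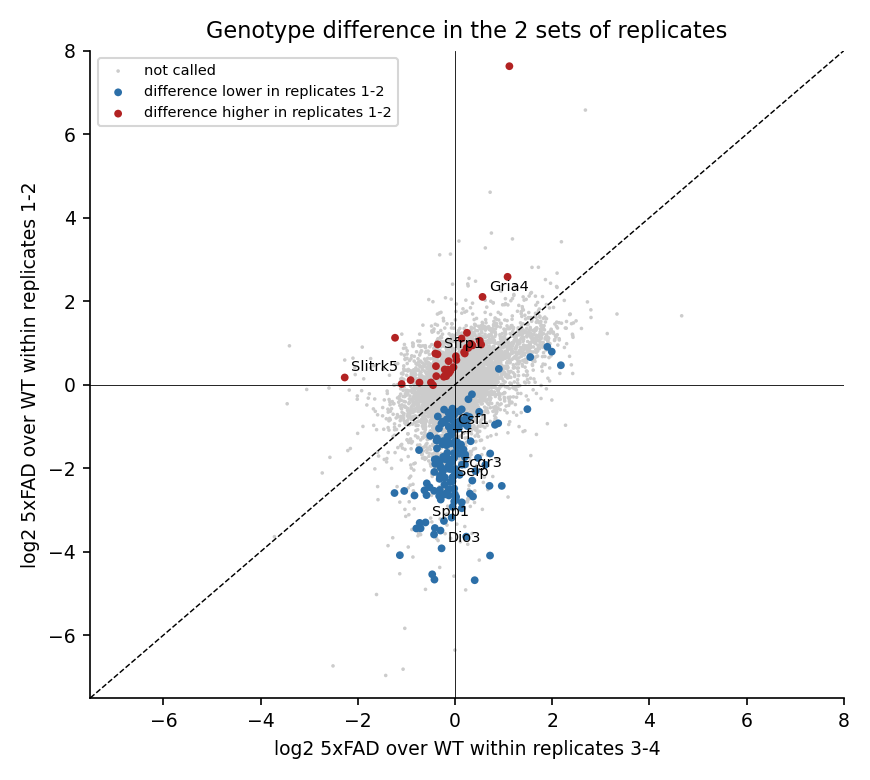
log2 difference of 5xFAD over WT within replicates 1-2 (vertical) against the same within replicates 3-4 (horizontal), 1 dot per tested gene, with the dashed line where both are equal. Called genes are coloured, 151 below the line in blue and 38 above it in red, and most of the blue ones lie near 0 on the horizontal axis and below 0 on the vertical axis.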

How the data were processed

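RNA from 8 libraries was described from the raw gene counts that the authors deposited as whole numbers. The genome build was GRCm39, per the submitters' processing notes; aligner, counter and strandedness: not given in the sources used here. Genes were kept with edgeR's filterByExpr (15845 of 56691), scaled by TMM and fitted in edgeR 4.0.16 (R 4.3.3) with genotype and set as terms; CPM used the TMM-scaled library sizes. The sets, members and lists were chosen with earlier results of these data known. The genotype by set term was tested with edgeR's quasi-likelihood test and Benjamini-Hochberg adjustment over all genes, with limma 3.58.1 (voom) and DESeq2 1.42.0 as alternatives. Both fits were tested on simulated counts, drawn independently with the sets fixed beforehand. Such counts cannot show what choosing the sets from the same libraries, or 1 deviant library, does to the values. Depth limits low genes most. Genes named are up to 4 called members of each described list, the 12 largest called differences in each direction at 5 CPM or more, the 6 smallest adjusted p of the interaction in each direction and the first marker of each cell type; list members named beyond these, and Spp1, were chosen after their values were seen. Whether replicate numbers pair 5xFAD with WT was checked on deviations from the means of genotype and set: r was 0.01 for numbers 1 and 2 and 0.10 for 3 and 4, so the numbers were not taken as pairs. Promoters are RefSeq's. A few genes that these rules name are not reported here.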

Additional observations from a re-analysis of the deposited data

Results flagged for a closer look

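In 86 groups of 4 libraries tested, 2 held a library far from the other 3, where chance gives about 1 in 20. WT replicate 2 had a mean log2 CPM of the collagen and basement membrane list, centred on the 8 libraries, of -0.59 in replicates 1-2, against -0.263 to -0.206 in the other 3. Exoc3l2 stood at 19.5 CPM in WT replicate 2, against 10.3 to 11.6 CPM in the other 3 libraries of replicates 1-2.

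The difference between 5xFAD and WT passed the test of the genotype by set term in the named genes (edgeR interaction, log2, replicates 1-2 minus 3-4), with p-values that can be too small because the sets were drawn from the same libraries. It was lower in replicates 1-2 for Trf (-1.28), Xdh (-1.13), Csf1 (-1.02), Pla2g4a (-1.16) and Selp (-2.24). It was higher for Gm42047 (1.15), Slitrk5 (2.44), Sfrp1 (1.09), Gria4 (1.54), Htra1 (0.64) and Zfp991 (2.36). What the replicate numbers stand for was not given, so their part in these values was not tested.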

How the results depend on the processing

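Direction was checked for the 12 largest called differences each way and up to 4 called members of each described list. No difference among these changed direction, and other called genes were not checked. These genes were called because the sets did not overlap within either genotype. A change of direction with 1 genotype alone or 1 library left out was therefore hardly possible, so that check says little. The medians of the meningeal, pan-neuronal and nerve injury lists (-0.97, -0.07 and -0.06) changed sign under some settings below. Genes called higher numbered 237, and 392 with no filter, 94 at a mean of 5 CPM, 53 at 2-fold, 2283 with no fold minimum, 145 with all 4 libraries apart, 441 in 5xFAD alone, 377 in WT alone and 262 to 430 leaving out 1 library. Genes called lower numbered 579, and 340 at a mean of 5 CPM, 209 at 2-fold, 2408 with no fold minimum, 380 with all 4 apart, 1022 in 5xFAD alone and 610 to 949 leaving out 1 library. The rule of a call is looser with 1 library left out or with 1 genotype alone, which favours higher counts there. List medians moved most between genotypes fitted alone, given here as 5xFAD and then WT: macrophages -2.06 and -0.29, fibroblasts -1.64 and -0.41, complement -1.47 and -0.30, cytokines -1.16 and -0.16, non-myelinating Schwann cells -0.19 and -0.43, cell cycle -0.20 and -0.41. Others moved in 5xFAD alone (satellite glia -0.49, endothelium 0.76, oxidative stress 0.36) or in WT alone (class I -0.50, meningeal 0.094, pan-neuronal 0.29, nerve injury 0.37). At a mean of 5 CPM complement was -1.17, meningeal -0.46 and nerve injury 0.092; limma-voom gave meningeal -0.58; removing length and GC bins gave ribosomal proteins 0.18. Leaving out 1 library, medians ranged from -1.28 to -0.79 for macrophages, -1.33 to -0.75 for fibroblasts, -1.14 to -0.62 for cytokines, -0.54 to -0.34 for class I, -0.61 to -0.48 for myelin, -0.45 to -0.22 for satellite glia, -1.11 to -0.29 for meningeal cells and -0.31 to -0.25 for cell cycle. The interaction called 38 higher and 151 lower, against 173 and 352 with no filter, 47 and 223 by DESeq2, and 22 higher by limma-voom. With the replicate number as a block it called 100 and 348, though the numbers were not shown to pair the libraries; for the sets themselves no paired analysis was possible because the numbers define them. Leaving out 1 library gave 7 to 104 higher and 57 to 238 lower, a lone sample being assumed to vary like the other groups. The causes were not tested.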
